A study of Homo sapiens with 12 samples.

Results

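Selected histone genes with counts in poly(A)-primed libraries, not all such genes, were followed in 2 human cancer cell lines. The lines were cultured with or without HME, a methanol extract of the red alga Hypnea musciformis. The selected genes are 10 of the 57736 genes in the count tables. Of them, 9 are described by name, HIST1H4B, HIST1H1C, HIST1H2BK, HIST1H2BD, HIST1H2AC, HIST1H4H, HIST2H2BE, H2AFZ and H2AFX. Counts and medians over the set include all 10. They were selected on values measured in these same libraries, so their changes are described here and are not independent evidence. Of them, 7 belong to the 70 genes listed here as replication-dependent histone genes and 3 to the 12 listed as replacement histone genes.

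HepG2 cells, from a liver carcinoma, and Ls174 cells, from a colon cancer, were kept for 24 h either untreated (control) or with HME, at 0.7 mg/ml according to the labels; the methods of the study give a slightly higher concentration. Both lines are labelled WT, and each of the 4 groups (HepG2 control, HepG2 HME, Ls174 control, Ls174 HME) holds 3 libraries. Each line is 1 cancer line and the controls carry no named vehicle in the labels. In bulk RNA, fewer cells that use a gene and less RNA of that gene per cell cannot be told apart.

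Replication-dependent histone genes supply new histones in S phase. Their mRNAs normally end just after a conserved stem-loop, which is bound by SLBP, and carry no poly(A) tail. Several of these genes also hold a downstream cleavage and polyadenylation site that yields polyadenylated mRNA, a form known from differentiated and non-cycling cells. Replacement histone genes, such as those of H2A.Z and H2A.X, are used outside S phase and their mRNAs are commonly polyadenylated. The libraries were primed on poly(A), so the ordinary stem-loop form is largely outside the measurement.

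The sequence elements that mark either kind of 3′ end were looked up in the counted regions. A stem-loop (6 base pairs closing a loop of 4 bases) was found in the counted 3′ regions of 8 of the 10 genes, namely all 7 replication-dependent genes and H2AFX. The stem-loops are given as the RNA-sense DNA strand of GRCh37 (hg19), with the stem-loop in capitals and 5 bases of flank on each side.
HIST1H4B, minus strand, chr6:26027129-26027144: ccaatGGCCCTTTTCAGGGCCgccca
HIST1H4H, minus strand, chr6:26285359-26285374: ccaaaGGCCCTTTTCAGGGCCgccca
HIST1H1C, minus strand, chr6:26055972-26055987: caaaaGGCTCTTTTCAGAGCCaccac
HIST1H2AC, plus strand, chr6:26124897-26124912: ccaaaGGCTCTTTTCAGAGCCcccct
HIST2H2BE, minus strand, chr1:149857738-149857753: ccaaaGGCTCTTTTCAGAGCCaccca
HIST1H2BD, plus strand, chr6:26158815-26158830: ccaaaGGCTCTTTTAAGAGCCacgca
HIST1H2BK, minus strand, chr6:27114145-27114160: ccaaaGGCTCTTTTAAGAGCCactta
H2AFX, minus strand, chr11:118965608-118965623: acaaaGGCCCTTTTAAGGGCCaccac

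The 8 stem-loops fall into 4 spellings. Both H4 genes shared 1 of them, the pair HIST1H2BD and HIST1H2BK another, and HIST1H1C, HIST1H2AC and HIST2H2BE the one that 40 of the 71 histone genes with a stem-loop carry. The spelling of H2AFX was found in no other of these 71 genes.

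A poly(A) signal hexamer (AATAAA or ATTAAA) lay in the last 50 bases of a counted region in 7 of the 10 genes. A poly(A)-primed read could come from such a site, although region counts do not place reads at a hexamer. The sites of 6 genes are given with the hexamer in capitals and 12 bases on each side.
HIST1H2AC, distal region, chr6:26139316-26139321: ctggcatgaggtAATAAAaggtaatgcaaa
HIST1H2BD, distal region, chr6:26171553-26171558: aaagttataattAATAAAatctgcggagaa
HIST1H2BD, proximal region, chr6:26158843-26158848: acgcatgttttcAATAAAtgagttgtaatc
HIST1H2BK, distal region, chr6:27106092-27106097: gccctgtaccttAATAAAtttgtatgcctt
HIST1H4H, distal region, chr6:26281302-26281307: caataaaaggtgAATAAAatcaggtcactc
HIST2H2BE, only region, chr1:149856027-149856032: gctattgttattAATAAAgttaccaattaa
H2AFX, only region, chr11:118964603-118964608: tggactaattttATTAAAggattgtttttt

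HIST1H4B, HIST1H1C and H2AFZ had no hexamer in that window. HIST1H4B (chr6:26027124-26027168, 45 bases, 3′ UTR) and HIST1H1C (chr6:26055968-26056014, 47 bases, 3′ UTR) each have a single counted region, which ends 5 and 4 bases after the stem-loop. The region counts therefore do not place the reads of these genes at a poly(A) signal, and how their RNA came to be primed was not tested. Of the 20 genomic bases past the region's end, 5 were A in HIST1H4B and 8 in HIST1H1C. The counted region of H2AFZ (chr4:100869046-100869618, 3′ UTR) held 2 hexamers, both farther than 50 bases from its end.

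Reads of the genes with a choice of regions fell mostly on the distal one. For HIST1H2AC, 470 of 478 counts over the 12 libraries (98.3%, exact 95% binomial interval 96.7 to 99.3) lay in the distal region (chr6:26138282-26139344, 3′ UTR), far beyond the proximal one. For HIST1H2BK it was 3783 of 3803 counts (99.5%, 99.2 to 99.7), in a region (chr6:27106073-27106460) that GENCODE v44 on GRCh37 places in an exon of a lncRNA, ENSG00000290032, on the same strand, not in H2BC12, the current name of HIST1H2BK. HIST1H2BK values are therefore values of that downstream region, and reads of the histone gene and of the lncRNA cannot be told apart.

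**Figure D1:**
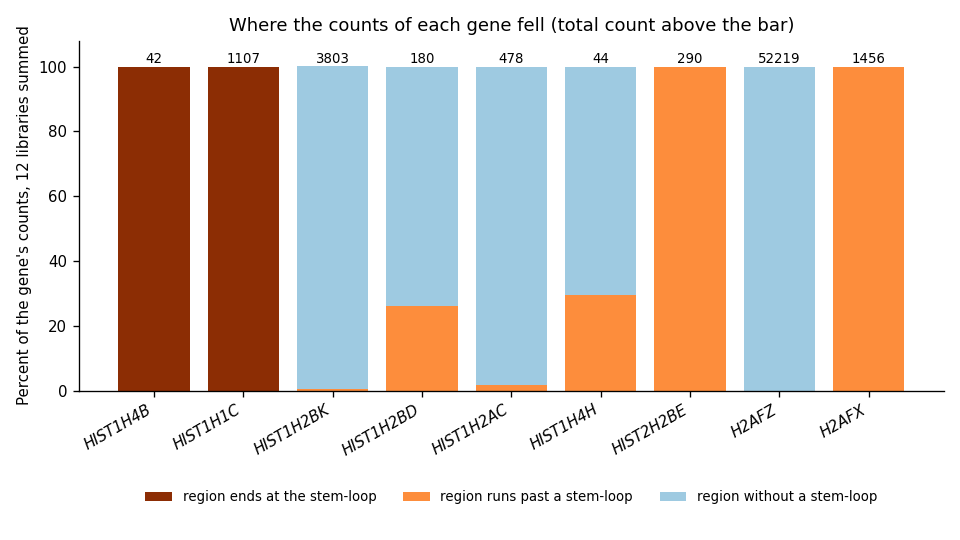
Percent of each gene's counts (y axis, 12 libraries summed) by the type of counted 3′ region, with the total count above each bar. HIST1H4B and HIST1H1C have only a region that ends at the stem-loop, while HIST1H2AC and HIST1H2BK drew 98.3% and 99.5% of their counts from a distal region without one.

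HIST1H2BD and HIST1H4H used both regions. The proximal region, with the stem-loop, held 47 of 180 HIST1H2BD counts (26.1%, 19.9 to 33.2) and 13 of 44 HIST1H4H counts (29.5%, 16.8 to 45.2). In HIST1H2BD this share was 19.6% (9.36 to 33.9) in HepG2 control and 37.5% (24.0 to 52.6) in HepG2 HME, and 14.3% (4.81 to 30.3) in Ls174 control and 29.4% (17.5 to 43.8) in Ls174 HME. The point values were higher with HME in both lines, with intervals that overlap within each line, and a shift was not tested. HIST1H4H, HIST1H2AC and HIST1H2BK also had higher point values with HME in both lines, from few proximal counts. In HepG2 control and HME these were 15.4% and 34.6% for HIST1H4H, 0.813% and 3.21% for HIST1H2AC, and 0.542% and 1.2% for HIST1H2BK. HIST2H2BE (chr1:149856010-149857809) and H2AFX (chr11:118964564-118965672) each have 1 long 3′ UTR region, which holds both elements, so their counts cannot be split. The intervals cover counting error only.

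The libraries held 1790841 to 3656662 counts. Levels below are in CPM, counts brought to a common library size with TMM factors over all 12 libraries, and since reads come from transcript ends they do not grow with gene length. HepG2 control 2 and Ls174 control 1 lay apart from their groups, with correlations of log2(CPM + 1) of 0.871 to 0.872 and 0.88 to 0.885 with the other 2 controls, which correlated at 0.959 and 0.979 with each other, while HME replicates correlated at 0.945 to 0.98. HepG2 HME 2 held 551.5 CPM of COL1A1 and 407.6 CPM of COL1A2, mesenchymal collagen genes that were at 6.062 CPM or less in the other 11 libraries. The 8 liver markers summed to 10700 to 19200 CPM in HepG2 libraries and 23.1 to 172 CPM in Ls174 libraries, and the 8 intestinal markers to 69.8 to 209 and 377 to 471 CPM. Liver markers summed to 15200 to 19200 CPM in HepG2 control and 10700 to 12200 CPM in HepG2 HME. Of the intestinal markers, MUC2, a mucin gene, was at 0 in HepG2, and CDX1 in HepG2 HME. KRT20 went the other way, at 0 in Ls174 control but counted in HepG2 control. Mesenchymal markers summed to 10.1 CPM or less in the HepG2 controls and 4.35 CPM or less in Ls174 libraries (DCN and LUM at 0 in both control groups), blood cell markers to 4.3 CPM or less (PTPRC and CD3E at 0 in every group), and the 3 endothelial markers found in the tables to 4.36 CPM or less (KDR at 0 in every group). The part of these markers and libraries in the changes below was not tested.

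In HepG2 cells, 9 of the 10 genes passed the filter on low counts. A change was called at an adjusted p under 0.05 (edgeR's quasi-likelihood test, Benjamini-Hochberg over all genes) and, beside it, at the thresholds of the study's methods (p under 0.05 before adjustment, with the log2 change larger than 0.58 in size). Of the 9, 1 was called at the adjusted p, against 3.31% of all genes tested, and 2 at the thresholds of the methods, against 22.2%. The first, HIST1H4B, was at 0 in every control and entered the test only through its HME libraries, so nothing is read from these shares. In 4 of them every HME library was above every control library, where groups did not overlap for 30.8% of all genes tested. The median log2 fold change of the 9 was 0.28, against -0.04 over all genes tested, with 6 above 0.

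In Ls174 cells, 8 of the 10 passed the filter, 0 were called at the adjusted p (background 1.18%) and 1 at the thresholds of the methods (background 12%). An unadjusted p under 0.05 was reached by 2 of them, H2AFX and HIST1H2BK, and DESeq2 called 0. Groups did not overlap for 2 of the 8 (background 23.8%), both higher with HME, and the median log2 fold change was 0.51 against 0.0 over all genes tested. Shares this close to the background are no result about the 10 genes as a set. In both lines 6 genes had a fold change above 0, under TMM, upper-quartile and library size scaling and in DESeq2, although library size alone moved the median of all genes in HepG2 to -0.2.

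**Figure D2:**
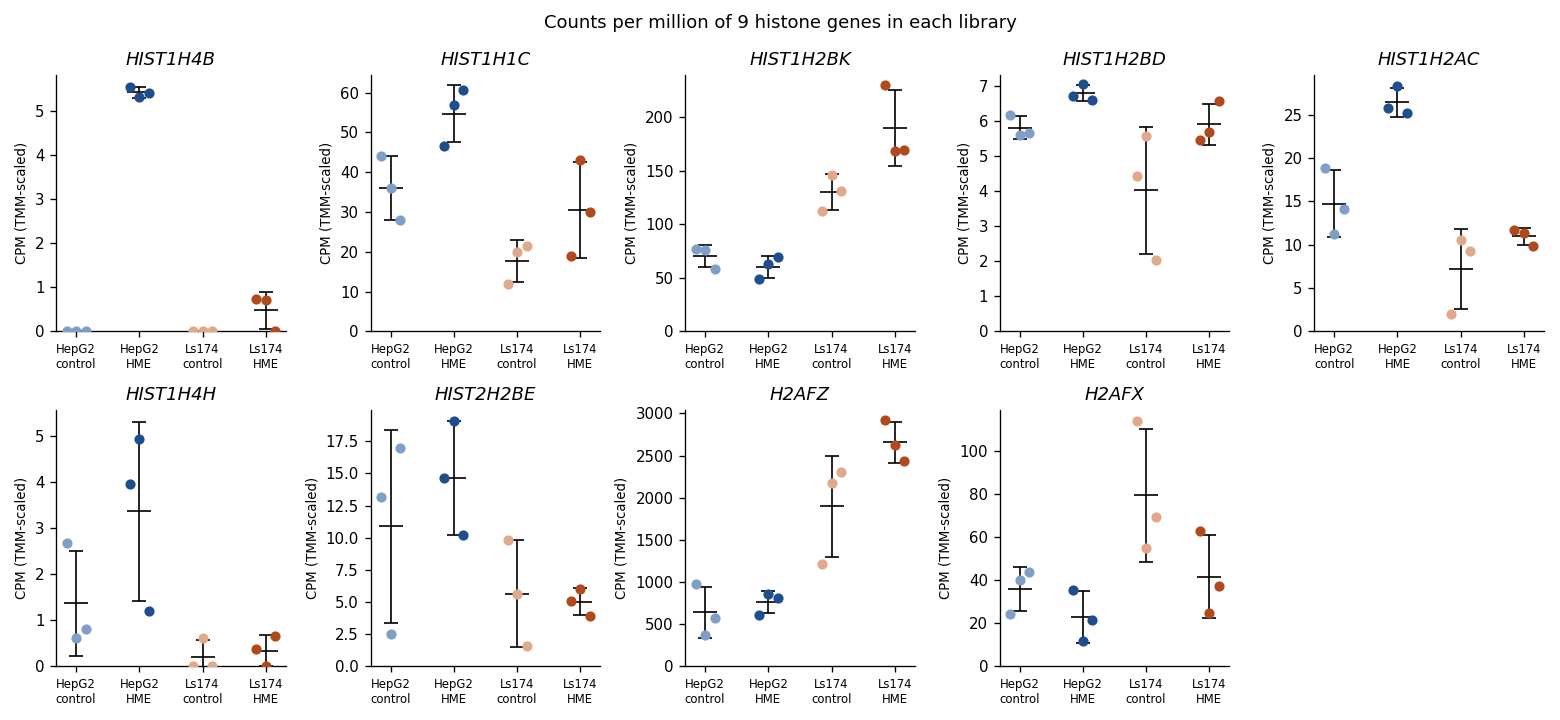
CPM (y axis, linear from 0) of each of the 9 named genes in every library, by group; points are libraries, the bar is the mean and the whiskers the SD (n = 3). HIST1H4B is at 0 in all 6 control libraries and between 5.30 and 5.54 CPM in the HepG2 HME libraries, while H2AFX lies lower on average with HME in both lines with overlapping points.

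HIST1H4B, a gene for the core histone H4, gave the clearest contrast. It had counts of 0, 0 and 0 in the HepG2 control libraries and 14, 15 and 9 in the HepG2 HME libraries, that is 5.54, 5.30 and 5.41 CPM. The mean with HME, 5.42 ± 0.119 CPM (SD, n = 3), was at least 2.9-fold higher than the 1.869 CPM that 3 counts make in the shallowest HepG2 control library. In Ls174 the counts were 0, 0 and 0 in control and 2, 2 and 0 with HME, at or under that floor in every library, so no fold is given. The gene passed the filter on low counts only through its HME libraries and was selected on these values, so its call in HepG2 is a description. The adjusted threshold was no longer passed without HepG2 HME 1, 2 or 3 (adjusted p 0.0665, 0.0573 and 0.0726, edgeR). H4 genes code for nearly the same sequence, and how reads with several alignments were counted is not given in the sources used here, so the assignment of these few reads to HIST1H4B is uncertain.

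The pattern of 0 in every control and a count in every HME library was not particular to HIST1H4B. Of the 53 replication-dependent genes with a count in HepG2, 5 showed it (HIST1H4B, HIST1H2AD, HIST1H2BL, HIST1H3H and HIST1H4D), named after their values were seen, and 0 showed the reverse. Over all genes with a count in HepG2, 0.601% showed the first pattern and 0.638% the reverse. In Ls174, 2 of 46 (HIST1H2BC and HIST2H3D) showed the first and 0 the reverse, against 0.456% and 0.186% of all genes with a count. With HME, HIST1H2AD (1, 2 and 1 counts) and HIST1H3H (3, 3 and 1) in HepG2 stayed within the floor of 3 counts. So did HIST2H3D in Ls174, with 1 count per HME library, and the regions of HIST1H2BC there held at most 2 each. HIST1H4B was selected on these values, and nothing is read from these shares.

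HIST1H1C, which codes for the linker histone H1.2, was counted only in its stem-loop region. It stood at 44.1, 36.1 and 27.9 CPM in HepG2 control and 46.7, 56.9 and 60.7 CPM in HepG2 HME. All 3 HME libraries were above the controls, narrowly for the nearest pair, and the log2 fold change was 0.61 (SE 0.31), which did not pass either threshold. Ls174 libraries had 11.8, 19.9 and 21.5 CPM in control and 18.9, 43.0 and 29.9 CPM with HME, with a log2 fold change of 0.77 (SE 0.36). There the lowest HME library lay among the controls.

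HIST1H2AC, a gene for the core histone H2A, was the second gene to pass the thresholds of the methods in HepG2. It stood at 18.8, 11.2 and 14.1 CPM in control and 25.7, 28.3 and 25.2 CPM with HME. The groups were well separated, with 26.4 ± 1.64 against 14.7 ± 3.84 CPM (SD, n = 3) and a log2 fold change of 0.84 (SE 0.32). It ranged from 0.74 to 1.05 when 1 library was left out, and the call was lost without HepG2 control 3, HepG2 HME 2 or HepG2 HME 3. In Ls174 it stood at 1.97, 10.6 and 9.22 CPM in control and 11.7, 11.4 and 9.86 CPM with HME. The low value belonged to Ls174 control 1, and without it the log2 fold change of 0.55 (SE 0.52) became 0.16 (SE 0.29).

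HIST1H2BD, HIST1H2BK and HIST2H2BE code for the core histone H2B. HIST1H2BD stood at 6.18, 5.61 and 5.66 CPM in HepG2 control and 6.73, 7.07 and 6.61 CPM in HepG2 HME, from 9 to 23 counts a library. The groups did not overlap, yet the log2 fold change of 0.24 (SE 0.40) was smaller than its error. The levels in Ls174 were 4.43, 5.59 and 2.05 CPM in control and 5.46, 5.69 and 6.57 CPM with HME, a log2 fold change of 0.57 (SE 0.50) with overlapping groups.

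HIST1H2BK, counted in its distal region, did not share a direction between the lines. It stood at 77.2, 76.0 and 58.6 CPM in HepG2 control and 49.1, 62.9 and 69.1 CPM in HepG2 HME, a log2 fold change of -0.22 (SE 0.31) with overlapping groups. Ls174 libraries had 112.6, 145.9 and 130.8 CPM in control and 230.3, 168.5 and 169.6 CPM with HME, so that every HME library was higher, with a log2 fold change of 0.54 (SE 0.21) under the fold limit of the methods. The difference between the lines, 0.77 (SE 0.36) on the log2 scale, was not called.

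HIST2H2BE varied widely among the controls. It stood at 13.2, 2.49 and 17.0 CPM in HepG2 control and 14.6, 19.1 and 10.2 CPM in HepG2 HME, the low value being HepG2 control 2. The log2 fold change was 0.43 (SE 0.54) with that library and 0.06 (SE 0.35) without it. In Ls174 it stood at 9.84, 5.59 and 1.54 CPM in control and 5.10, 6.05 and 3.94 CPM with HME, a log2 fold change of -0.12 (SE 0.66) that lay anywhere from -0.61 to 0.54 when 1 library was left out.

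HIST1H4H, the other H4 gene, did not pass the filter in any comparison. It had 10, 1 and 2 counts in HepG2 control and 10, 14 and 2 in HepG2 HME, that is 2.69, 0.623 and 0.808 CPM against 3.96, 4.95 and 1.20 CPM with overlapping groups. In Ls174 no library held more than 2 counts, and no fold is given there.

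H2AFZ, which codes for the variant H2A.Z found around gene starts, had the most counts of the 10 genes. It stood at 971.0, 371.3 and 573.1 CPM in HepG2 control and 612.9, 860.4 and 810.8 CPM in HepG2 HME, with a log2 fold change of 0.28 (SE 0.38). Ls174 libraries had 1210, 2178 and 2305 CPM in control and 2916, 2622 and 2434 CPM with HME, so that the groups did not overlap, with a log2 fold change of 0.48 (SE 0.27). In each line the lowest control was the one that lay apart, and without it the log2 fold change was 0.05 (SE 0.29) in HepG2 and 0.25 (SE 0.18) in Ls174.

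H2AFX, which codes for H2A.X, the variant phosphorylated at DNA breaks, was lower on average with HME in both lines. It stood at 24.2, 39.9 and 43.6 CPM in HepG2 control and 35.6, 11.7 and 21.6 CPM in HepG2 HME, a log2 fold change of -0.63 (SE 0.45) with overlapping groups. In Ls174 it stood at 114.1, 54.9 and 69.1 CPM in control and 63.0, 24.9 and 37.1 CPM with HME, a log2 fold change of -0.93 (SE 0.39). The latter was the call at the thresholds of the methods in Ls174, although the highest HME library lay above the lowest control, and it was lost without Ls174 control 1, at -0.57 (SE 0.27). H2AFX was also the gene that gained a call at the adjusted p in Ls174 when every gene with a count was tested.

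**Figure D3:**
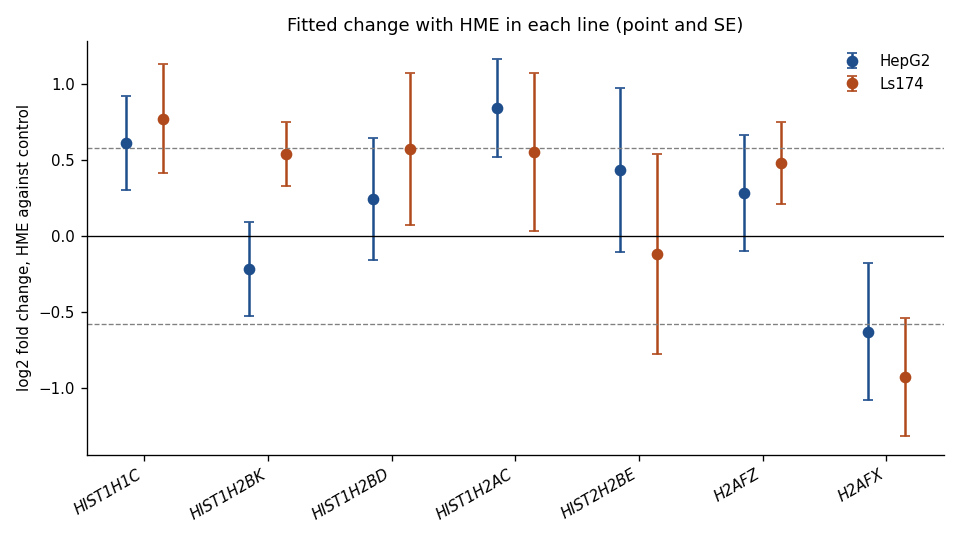
Fitted log2 fold change of HME against control (y axis) for the 7 named genes tested in both lines, with HepG2 and Ls174 as separate points and the SE as whiskers; dashed lines mark the fold limit of 0.58. HIST1H1C, HIST1H2BD, HIST1H2AC and H2AFZ lie above 0 and H2AFX below 0 in both lines, while HIST1H2BK and HIST2H2BE lie on opposite sides of 0.

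Whether HME acted differently on these genes in the lines was asked with the interaction of line and treatment over all 12 libraries. Of the 8 genes with an estimate, 0 passed the adjusted threshold (edgeR's quasi-likelihood test, background 0.644%), 0 had an unadjusted p under 0.05, and 0 passed in DESeq2. The estimate of HIST1H2BK was 0.77 (SE 0.36), positive values meaning a higher change in Ls174. The interaction of HIST1H4B could not be fitted, since both control groups were at 0, and HIST1H4H did not pass the filter.

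The untreated lines were compared gene by gene. Against HepG2 control, Ls174 control cells had more H2AFZ (log2 difference 1.55, SE 0.46), which was the 1 call at the adjusted p among 8 genes tested, against a background of 23.5%. The thresholds of the methods called 4 of the 8, against 35.0%, namely H2AFZ, H2AFX (1.11, SE 0.41) and HIST1H2BK (0.84, SE 0.31) as higher in Ls174 and HIST1H1C (-1.05, SE 0.39) as lower. Groups did not overlap for 6 of the 8, against 42.6% of all genes tested, and these shares are no result about the genes as a set. HIST1H2AC (-1.02, SE 0.59) and HIST1H2BD (-0.58, SE 0.55) were the other 2, both lower in Ls174. Without HepG2 control 2 and Ls174 control 1, a setting added after the data were seen, 6 of the 8 passed the adjusted threshold. Among them were H2AFZ, HIST1H2BK and H2AFX as higher in Ls174 and HIST2H2BE and HIST1H1C as lower. The share of all genes called in that setting is not given here, so nothing is read from this count about the set. The H2AFZ call was lost without HepG2 control 2, HepG2 control 3, Ls174 control 2 or Ls174 control 3, with adjusted p values of 0.0616 to 0.132 in edgeR. The HME comparison of each line and this one share the control libraries.

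The counts of the 7 replication-dependent genes described here were also summed by type of region. Their 7 regions with a stem-loop held 59.96, 38.6 and 46.9 CPM in HepG2 control and 72.8, 88.0 and 78.7 CPM in HepG2 HME. In Ls174 they held 21.6, 27.3 and 23.8 CPM in control and 27.7, 51.6 and 38.1 CPM with HME. The groups did not overlap in either line, although the nearest Ls174 libraries stood at 27.3 and 27.7 CPM. Their 4 distal regions without a stem-loop held 102.2, 93.4 and 77.2 CPM in HepG2 control and 79.5, 96.5 and 99.7 CPM in HepG2 HME, with overlapping groups, and 119.0, 160.8 and 141.3 CPM against 244.8, 183.8 and 182.4 CPM in Ls174, without overlap and mostly from HIST1H2BK. The sums over regions with a stem-loop came mostly from HIST1H1C in every library. The regions of HIST1H2BD and HIST2H2BE among them also hold a poly(A) hexamer, so they are not sums of stem-loop ends alone. A difference between kinds of 3′ end was not tested. All these sums follow from genes chosen for their values and carry no test.

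Among the other 63 replication-dependent genes the sum moved with HIST1H4C, a further H4 gene singled out after its values were seen. It stood at 324.3, 44.9 and 23.0 CPM in HepG2 control, 51.0, 183.5 and 166.4 CPM in HepG2 HME, 10.3, 96.2 and 436.5 CPM in Ls174 control and 118.4, 253.5 and 396.9 CPM in Ls174 HME. Its SD within each control group, 168 and 225.4 CPM, was wider than any difference between group means. Its counted region (chr6:26104488-26104518) ended before its stem-loop (chr6:26104545-26104560). The stem-loop regions of the remaining 62 genes summed to 81.5, 89.1 and 84.5 CPM in HepG2 control and 125.4, 110.3 and 130.3 CPM in HepG2 HME, and to 45.7, 35.4 and 29.7 CPM in Ls174 control and 46.3, 55.8 and 48.0 CPM in Ls174 HME. The groups did not overlap in either line with HIST1H4C left out, and overlapped in both with it included. A list trimmed in this way was not tested. The stem-loop regions of these 62 genes held 303, 143 and 209 counts in the HepG2 controls. HIST2H2AA3 drew 93, 62 and 76 of them, and HIST2H2AA4 84, 48 and 64. Whether the same reads were counted under both genes was not tested.

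**Figure D4:**
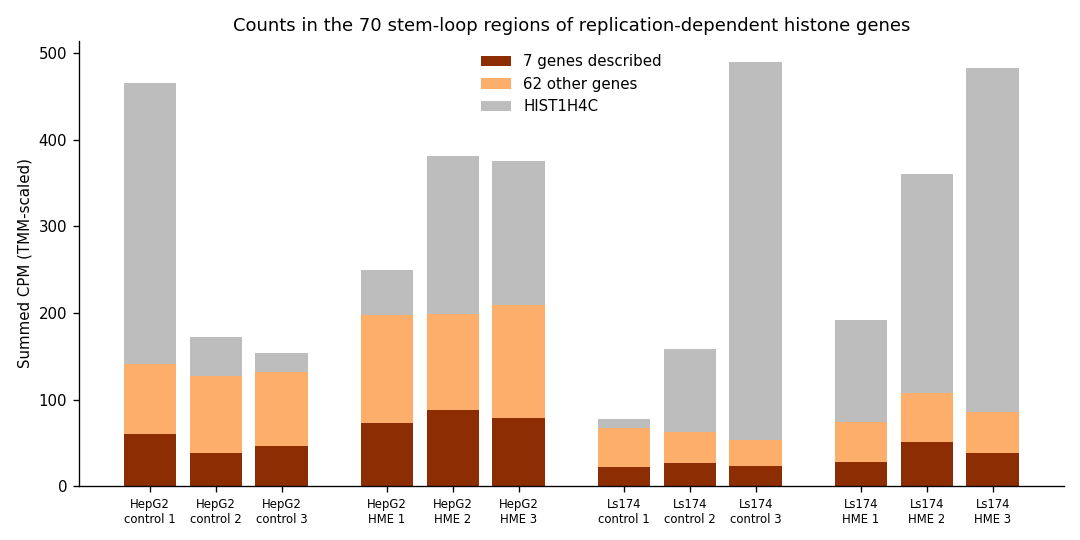
Summed CPM (y axis, linear from 0) in the 70 stem-loop regions of replication-dependent histone genes, 1 stacked bar per library, split into the 7 genes described here, HIST1H4C and the 62 other genes. HIST1H4C runs from 10.3 to 436.5 CPM over the Ls174 control libraries, while the 7 genes reach 72.8 to 88.0 CPM in the HepG2 HME libraries and 38.6 to 59.96 CPM in the HepG2 controls. The part of the 7 genes came mostly from HIST1H1C.

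Promoter letters were looked up in RefSeq promoters (GRCh38.p14, 300 bases around the start) for the 9 genes, on both strands. A TATAA stretch was found in 8 of 9, against 21.1% of 27305 promoters, and CCAAT in 7 of 9, against 35.7%. The octamer ATTTGCAT, known from H2B promoters, was found in HIST1H2BK, HIST2H2BE and HIST1H2AC, against 1.8% of promoters, and AAACACA, the letters of the H1 box, in HIST1H1C, against 5.8%. These matches describe the genes, and the 3 with the octamer did not share a direction with HME in both lines.

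Around the histone genes, 7 lists of related genes were counted, the 10 genes left out. SLBP, the stem-loop binding protein, stood at 34.4, 31.1 and 31.5 CPM in HepG2 control and 30.5, 27.6 and 25.8 CPM in HepG2 HME, with a log2 fold change of -0.20, and in Ls174 the log2 fold change was -0.05. It was not called in either line. Of 20 tested genes of histone mRNA 3′ end processing, SLBP among them, 0 were called in HepG2 by either rule, and in Ls174 1 of 21 was higher at the thresholds of the methods, MIF4GD, an SLBP-interacting translation factor, at 0.69.

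Of 21 tested genes of cleavage and polyadenylation, 0 were called at the adjusted p in HepG2, and 1 was higher and 2 lower at the thresholds of the methods, which 22.2% of all genes passed. The largest of these was PABPN1, the nuclear poly(A)-binding protein, at 217.5, 519.5 and 297.4 CPM in control and 157.5, 129.7 and 95.5 CPM with HME, a log2 fold change of -1.45 that lay between -1.70 and -0.94 when 1 library was left out. The median of the list was -0.37 in HepG2 and -0.14 in Ls174, where 1 gene was lower at those thresholds, against 12% of all genes passing them.

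Of the histone chaperones and deposition factors, 1 of 27 was higher and 5 lower in HepG2 at the thresholds of the methods, a share like the 22.2% of all genes, and 0 at the adjusted p. TONSL, which reads newly made H4 on replicated DNA, had a log2 fold change of -2.10, from 14.5, 41.1 and 19.0 CPM to 3.56, 4.60 and 9.61 CPM, and -2.57 to -1.48 when 1 library was left out. Of the genes of S phase and histone gene transcription, 1 of 24 was higher and 8 lower by the same thresholds, against the same 22.2%, and 0 were called at the adjusted p. MCM5, a subunit of the replicative helicase, had a log2 fold change of -1.54, and of -1.86 to -0.76 when 1 library was left out. The medians of the 2 lists were -0.28 and -0.36 in HepG2, and -0.09 and -0.10 in Ls174, where 1 of 28 was higher and 2 lower, and 0 of 25 higher and 1 lower. For PABPN1, TONSL, MCM5 and H2AFJ, described below, the highest control was HepG2 control 2.

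The list of cell cycle exit held the calls at the adjusted p in HepG2. This list also holds genes of D-type cyclins, so its counts and medians are not those of exit genes alone. CDKN2B, which codes for the cyclin-dependent kinase inhibitor p15, stood at 2.69, 0.623 and 2.02 CPM in control and 12.7, 17.7 and 15.6 CPM with HME, a log2 fold change of 2.98 with an SE of 0.50 and an adjusted p of 0.0132. BTG1, an antiproliferative gene, stood at 68.3, 87.2 and 39.2 CPM in control and 271.1, 304.0 and 406.6 CPM with HME, a log2 fold change of 2.33 with an SE of 0.40 and an adjusted p of 0.0141. Both rose by edgeR's quasi-likelihood test, in 3 of 3 HME libraries against every control, and each kept its call in 3 of 6 fits without 1 library. In all, 2 of 18 genes rose and 0 fell at the adjusted p, against 3.31% of all genes called, and 6 were higher and 2 lower at the thresholds of the methods, against 22.2%. In Ls174, 0 of 19 were called at the adjusted p, against 1.18%, 2 were higher and 3 lower at the thresholds of the methods, against 12%, and the median of the list was 0.04. CDKN2B was one of those 2, at 5.41, 0.621 and 0.768 CPM in Ls174 control and 14.6, 9.60 and 10.5 CPM in Ls174 HME, a log2 fold change of 2.50 (SE 0.76) without overlap of the groups. Its change was not shown to differ between the lines, with an interaction of -0.44 (SE 0.95), while BTG1 had a log2 fold change of 0.34 (SE 0.20) in Ls174 and an interaction of -1.99 (SE 0.43) at an adjusted p of 0.0508 in edgeR.

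Of 63 other replication-dependent genes only 7 passed the filter in HepG2 and 5 in Ls174, with 0 called by either rule. Their median log2 fold changes were 0.21 and 0.50 against -0.04 and 0.0 over all genes tested. The Ls174 median is the value of HIST1H4C (SE 0.96), which ran from -0.05 to 2.24 when 1 library was left out. HIST2H2AA3 and HIST2H2AA4, which may share reads, are also among the 5. The median is therefore not read as a rise of the list. Of 9 other replacement histone genes, 0 were called at the adjusted p in either line and 1 was lower at the thresholds of the methods in HepG2. This was H2AFJ, an H2A variant gene, at 18.8, 88.5 and 23.4 CPM in control and 13.8, 13.1 and 9.61 CPM with HME, a log2 fold change of -1.83 that lay between -2.22 and -0.70 when 1 library was left out.

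**Figure D5:**
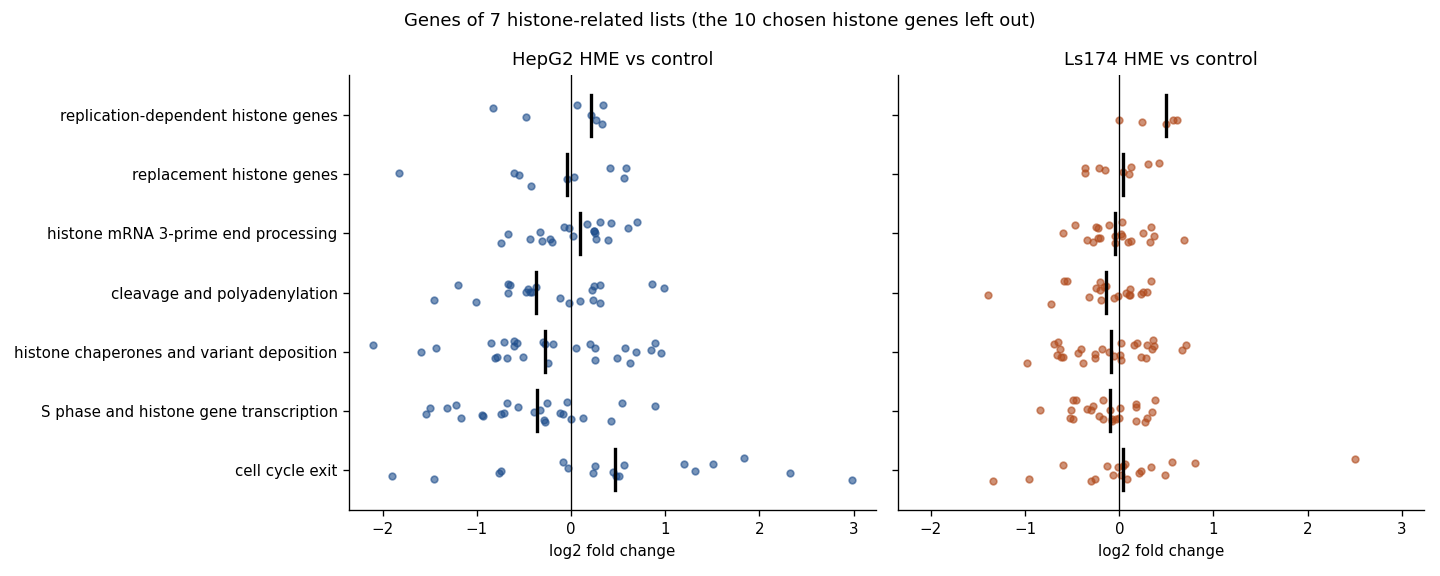
Log2 fold change of HME against control (x axis) for the tested genes of the 7 lists, HepG2 on the left and Ls174 on the right; each point is a gene and the black bar is the median of the list. In HepG2 the median was -0.36 for S phase and histone gene transcription and 0.47 for cell cycle exit, and in Ls174 it was -0.10 and 0.04.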

How the data were processed

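The authors prepared 3′ mRNA libraries (QuantSeq) from 12 RNA samples, sequenced them on an Ion Proton, aligned reads to hg19 (GRCh37) and counted them with metaseqR2; the submitters' processing notes name HISAT2, Bowtie2 and Trimmomatic, with versions not given in the sources used here. The deposited values are raw read counts per 3′ region, not normalized (144910 regions, 717 of them listed under more than 1 gene, 0 of these among the 10 genes). Counts were summed over the regions of a gene. Each line was fitted by itself with edgeR 4.0.16 (two-sided quasi-likelihood F test after TMM scaling, low genes removed with filterByExpr given the groups) in R 4.3.3, the interaction on all 12 libraries, and the controls of both lines against each other. The study's methods name a binomial test, which has no term for replicate spread and was run as an alternative. The SE came from the F statistic. The floor was 3 counts per library. Libraries held 1790841 to 3656662 counts, and the p-values of edgeR set a difference between groups against the spread between libraries. No pair of replicates was a duplicate (chi-square per degree of freedom of 4.45 or more).

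Histone stem-loops and hexamers were searched by script in the GRCh37 sequence of each counted region and 100 bases beyond it, with G and T pairs allowed. A region was taken to end at a stem-loop where it ended at most 30 bases after it. Regions that ended before the end of their stem-loop, as in HIST1H4C, were counted in this type. Python 3.11.15, pandas 2.3.3 and matplotlib 3.10.9 were used for tables and figures, and the fits were tested on simulated data.

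The 10 genes, the gene lists, the tests and the alternatives were chosen with earlier results of these data known. One of the 10 genes is not reported here. The text names the other 9, SLBP, list genes with an adjusted p under 0.05 (at most 3 per list and direction) and, for a list without any, the gene with the largest change among those that passed the thresholds of the methods without overlap of the groups. The alternatives were DESeq2 1.42.0, upper-quartile scaling, library size alone, every gene with a count, at least 10 counts in every library, the replicate number as a block, no shared regions, 1 fit of all 12 libraries, the binomial test, and leaving out each library. Leaving out HepG2 control 2 and Ls174 control 1 together was added after the data were seen.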

Additional observations from a re-analysis of the deposited data

How the results depend on the processing

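Of 531 fold changes of the 10 genes in other settings, pooled over all comparisons, 515 kept the sign of the value reported. The settings refit the same libraries, so agreement in sign is no independent evidence. The count of genes called at the adjusted p in HepG2 (1, HIST1H4B) became 0 with at least 10 counts in every library, where HIST1H4B is not tested, and 7 by the binomial test on summed counts, and ran from 0 to 1 when 1 library was left out. By the thresholds of the methods (2) it became 1 with library size only, with at least 10 counts in every library and in 1 fit of all 12 libraries, and ran from 1 to 3 without 1 library. In Ls174 the count at the adjusted p (0) became 1 with every gene with a count and 5 by the binomial test, and that at the thresholds of the methods (1) became 2 with every gene with a count, in 1 fit of all 12 libraries and by the binomial test, and ran from 0 to 2 without 1 library. Between the control groups the count at the adjusted p (1) became 3 with DESeq2, library size only and 1 fit of all 12 libraries, 0 with at least 10 counts, 7 by the binomial test and 6 without both controls that lay apart, and ran from 0 to 1 without 1 library. By the thresholds of the methods (4) it became 8 by the binomial test and 7 without both controls, and ran from 2 to 5 without 1 library. The interaction count stayed at 0 in every setting run. The binomial test has no replicate spread by construction, and for the other shifts the cause was not tested. Shares of all genes called are not given here for most of these settings. The counts therefore describe the settings and are no result about the 10 genes.

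The replicate numbers did not pair the libraries (correlations of same-numbered deviations from -0.154 to 0.0746 in HepG2 and -0.0595 to 0.00144 in Ls174). With the replicate block the counts at the adjusted p were 1 in HepG2 and 0 in Ls174 and between controls, and those at the thresholds of the methods 1, 2 and 1. Genes of the lists called in HepG2 (2) became 16 with DESeq2 and 6 with library size only, and 0 to 10 without 1 library (10 without HepG2 control 2, 0 without HepG2 control 3 or HepG2 HME 3). In Ls174 (0) they became 1 with DESeq2 (POU2F1) and ran from 0 to 5, the 5 without Ls174 control 1. Over all genes HepG2 had 375 calls with edgeR and 1033 with DESeq2. Shares of all genes called are not given here for the other settings of this paragraph, so these counts describe the settings only. Genes at 15 counts or fewer per library, as HIST1H4B and HIST1H4H, are limited by depth.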
